A study of Mus musculus with 8 samples.

Results

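The 10 genes described here carry iron into the cell, store it, release it from haem or send it out again, and they were measured in osteoclasts, the multinucleated cells of the macrophage lineage that degrade bone. They were chosen by name, as transferrin receptor (Tfrc), the metal transporters Slc11a1 and Slc11a2, the reductase Steap3, the ferritin chains Fth1 and Ftl1, the ferritin autophagy receptor Ncoa4, haem oxygenase (Hmox1), the exporter ferroportin (Slc40a1) and the regulator Ireb2. All 10 were found among the 46517 genes measured, and all 10 were among the 14139 genes abundant enough to be tested. The study sequenced the mRNA of osteoclasts from 4 Elmo1-/- and 4 Elmo1+/- mice, 1 library per mouse, to ask which genes depend on ELMO1, a cytoplasmic adapter that works with DOCK and RAC proteins on the cytoskeleton. The Elmo1-/- (knockout) mice lacked the gene in every cell, and the Elmo1+/- controls were not wild-type but kept 1 intact copy, although the titles of their libraries read WT. In both groups the marrow came from femurs of mice aged 6 to 8 weeks. Marrow cells in suspension were first grown with 10% L929 conditioned medium, which supplies the growth factor M-CSF. The cells that then attached were replated and cultured with GST-RANKL, the osteoclast differentiation factor, at 50 ng/ml for 7 days. Beyond this selection by attachment no sorting is described, so the cultures can hold macrophages and other marrow cells beside osteoclasts.

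Iron bound to transferrin enters a cell on the transferrin receptor, is reduced in the endosome by STEAP3 and leaves it through the transporter encoded by Slc11a2. Iron that is not used is kept inside the ferritin shell, which is built of heavy chains (Fth1) and light chains (Ftl1), and is recovered when NCOA4 takes ferritin to the lysosome. Macrophages also take iron from the haem of engulfed red cells through HMOX1, move metal out of the phagosome through SLC11A1, and export iron through ferroportin. Osteoclasts are rich in mitochondria, which need iron for haem and iron-sulphur clusters, and increased transferrin receptor is a known feature of osteoclast differentiation.

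Several of these mRNAs carry iron-responsive elements, short hairpins that iron regulatory proteins such as the product of Ireb2 bind when iron is low. A hairpin in the 5′ UTR blocks translation, and hairpins in the 3′ UTR of Tfrc protect the mRNA from decay. No effect of such a hairpin on mRNA amount or translation was measured here. The sites below show which of the genes hold a match to its pattern in a 5′ UTR and which in a 3′ UTR. They were found in the GENCODE M21 transcripts (GRCm38) as C, 5 bases, CAGTGN and 5 bases that pair with the first 5 (G-U pairs allowed), read on the mRNA strand only, and the capitals mark the loop.
Fth1 5′ UTR (chr19:9982738-9982754, + strand): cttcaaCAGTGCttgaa
Ftl1 5′ UTR (chr7:45459785-45459801, - strand): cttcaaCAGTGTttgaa
Slc40a1 5′ UTR (chr1:45925471-45925487, - strand): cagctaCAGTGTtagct
Tfrc 3′ UTR (chr16:32631225-32631241, + strand): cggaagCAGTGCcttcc
Tfrc 3′ UTR (chr16:32631604-32631620, + strand): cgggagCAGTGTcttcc
Tfrc 3′ UTR (chr16:32631669-32631685, + strand): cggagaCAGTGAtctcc
Tfrc 3′ UTR (chr16:32631716-32631732, + strand): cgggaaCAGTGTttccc

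Each of the 7 sites lay in 1 exon. The 5′ UTR sites ended 115, 153 and 207 bases before the coding sequence of Fth1-201, Ftl1-201 and Slc40a1-201. By this pattern Tfrc held 4 sites in its 3′ UTR, the most in a UTR of any gene tested. Of all 22527 genes with a coding transcript, 0.138% held the pattern in a 5′ UTR and 0.639% in a 3′ UTR, against 3 and 1 of the 10 iron genes. Several of the 10 were known to carry the element when they were chosen, so this difference is not a finding of enrichment. Of the 73 further iron genes described at the end, 1 held it, the erythroid Alas2, which was at or near 0 in these cultures. A match is a description of these letters. Any of the 10 genes, Tfrc among them, may hold further forms of the hairpin that this pattern does not cover.

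The libraries held 20905502 to 40846651 reads on genes. The values are normalized counts, that is, reads on a gene scaled by the size factor of the library. Elmo1 itself, which checks the genotype labels, had a mean of 1593 ± 150.3 (SD over 4 mice, as below) in controls and 292 ± 17.6 in knockout mice, 5.42-fold lower in the latter. The libraries also separated by the number in their titles: the first principal component, with 62.3% of the variance, set those numbered 1 and 2 of both genotypes apart from those numbered 3 and 4. What these numbers mark is not stated in the labels. By the study's methods each experiment held 2 mice of each genotype, so the 4 per genotype came from 2 experiments. Which mice these were is not given, and whether the 2 sets are the experiments was not tested. All 14 osteoclast markers (such as Mmp9, Ctsk and Acp5) were higher in each library numbered 3 or 4 than in any numbered 1 or 2, and their summed normalized count was 1078242 to 1224577 in the former against 487996 to 736629 in the latter. Of 12 macrophage markers (such as Lyz2, Marco and Adgre1), 7 were lower there without overlap and none higher, with sums of 1364150 to 1524536 against 1795979 to 2221032. Among 12 proliferation genes (Top2a, Mki67 and Pcna the highest), 10 were lower there, with sums of 22145 to 29215 against 36529 to 39195. Of all genes tested, 18.1% were higher without overlap in libraries 3 and 4 and 15.8% lower. The full lists of 12 neutrophil markers (S100a8, S100a9 and Csf3r the highest), 12 stromal markers (Dcn, Col1a1 and Col1a2) and 10 lymphoid markers (Cd79b, Cd4 and Trac) summed to 11244 to 24097, 1117 to 1926 and 282 to 657. None of the 12 erythroid markers, haemoglobins included, was abundant enough to test, and their sum was 3 to 26. Every iron gene is therefore given for each library and for both sets of libraries as well as by genotype.

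**Figure D1:**
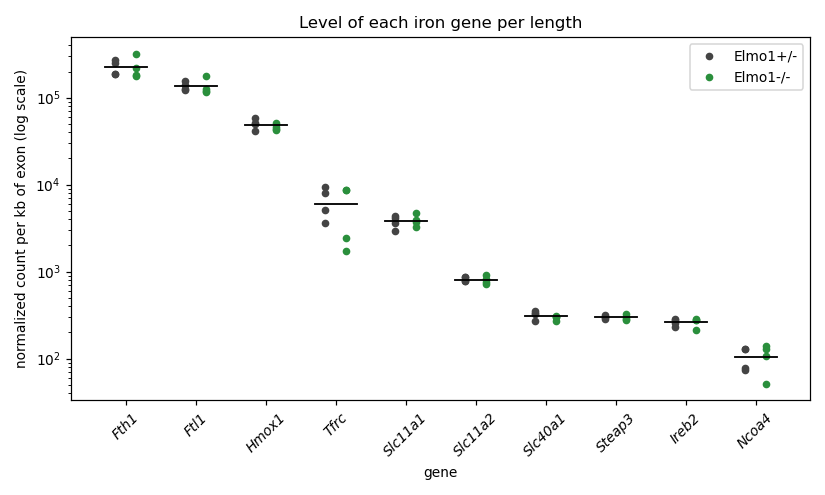
Normalized count per kb of annotated exon (log scale) of each iron gene. Points are the 8 libraries, grey for Elmo1+/- and green for Elmo1-/-, and bars are means over all 8. The ferritin chains and Hmox1 stand above the other 7 genes in every library, and Tfrc has the widest spread.

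Per kb of exon, ferritin heavy chain was the highest of the 10 at 224359 ± 51758 normalized counts (SD, n = 8 libraries), followed by the light chain at 135666 ± 21400 and Hmox1 at 47998 ± 5911. By normalized count without regard to length, Fth1 was the second most abundant of all genes measured, and it took 2.42% ± 0.41 of all counts in Elmo1+/- and 2.44% ± 0.63 in Elmo1-/- osteoclasts. Next per kb came Tfrc at 5950 ± 3103 and Slc11a1 at 3813 ± 574. Their ranges over the libraries overlapped, so that no order holds between these 2. Slc11a2 followed at 812 ± 67.5 per kb. Slc40a1 (307 ± 29.4), Steap3 (299 ± 16.6) and Ireb2 (262 ± 27.6) overlapped with their neighbours, and Ncoa4 was the lowest at 105 ± 33.1. The mean of Fth1 was 2142-fold that of Ncoa4, the receptor for its breakdown, on this scale. With the length of the longest transcript in place of all exons, 8 of the 10 kept their rank, and Steap3 and Ireb2 exchanged theirs.

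**Figure D2:**
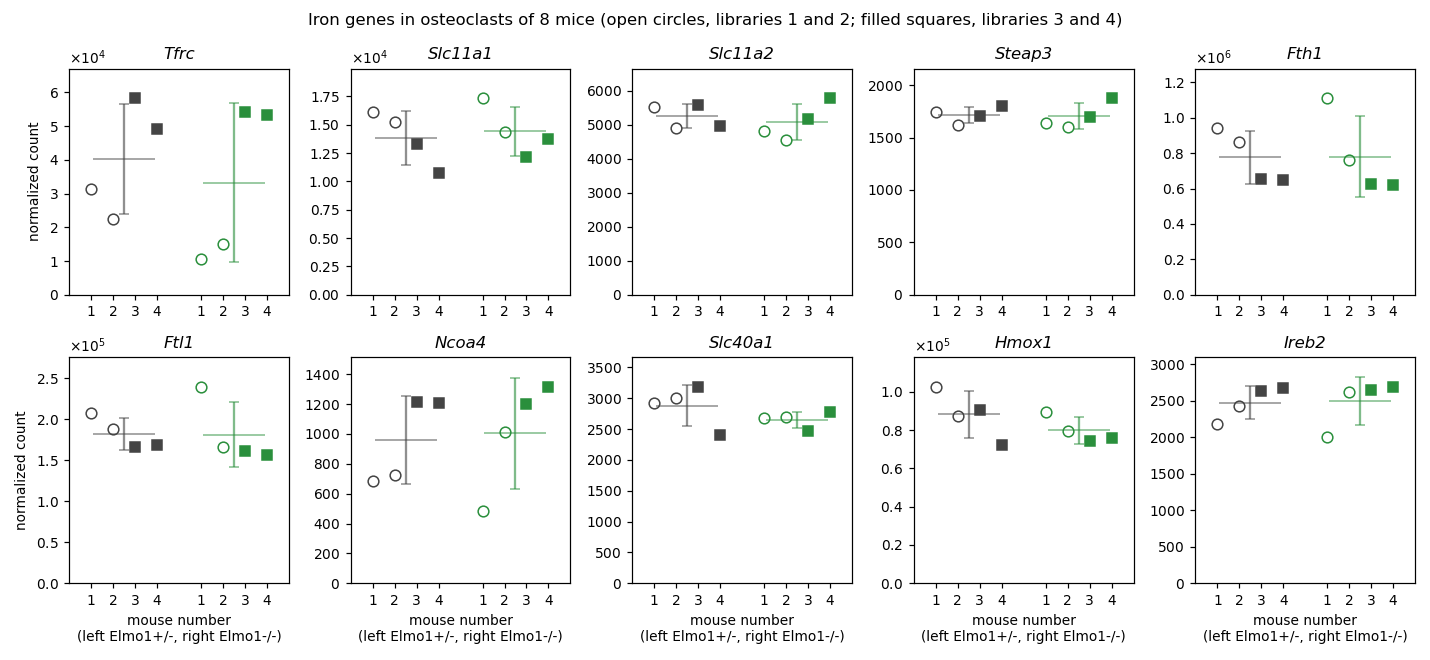
Normalized counts of the 10 iron genes in each library, each panel on its own linear scale from 0. Grey is Elmo1+/- and green Elmo1-/-, open circles are libraries numbered 1 and 2, filled squares those numbered 3 and 4, and lines with bars are the mean ± SD of 4 mice. The squares sit above the circles for Tfrc, Ncoa4 and Ireb2 and below them for Fth1 and Slc11a1, and the genotypes overlap in every panel.

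Tfrc (chr16:32608920-32632794, + strand) encodes transferrin receptor 1, the main entry for iron. It was 31303, 22564, 58292 and 49135 normalized counts in control mice 1 to 4 and 10736, 14919, 54128 and 53319 in knockout mice 1 to 4. The lowest values were those of Elmo1-/- mice 1 and 2, and the 4 libraries numbered 3 and 4 lay close together above all others. The highest library was 5.43-fold above the lowest, and only 2.31% of the genes tested had a range as wide. The genotype means were 40323 ± 16302 and 33275 ± 23675, and the log2 fold change of Elmo1-/- over Elmo1+/- was -0.53 (SE 0.57, 95% interval -1.82 to 0.76, limma adjusted p = 0.9999). The spread between mice of a genotype exceeded this difference, and the interval allows both a loss of more than 2-fold and a gain. By edgeR the log2 fold change was -0.28, and leaving out Elmo1-/- mouse 1 or mouse 3 gave -0.11 or -0.88 by limma. As the RNA came from whole cultures, fewer cells with a transcript and less of it per cell cannot be told apart for this or any gene below.

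The endosomal partners of the receptor varied little. Steap3 (chr1:120190757-120272705, - strand), the ferrireductase, was 1739, 1619, 1702 and 1804 normalized counts in control mice 1 to 4 and 1635, 1603, 1700 and 1876 in knockout mice 1 to 4. Its 8 values lay within 1.17-fold of each other, and 90.4% of the genes tested had a range as wide or wider. The log2 fold change was -0.01 (SE 0.07, 95% interval -0.17 to 0.15). Slc11a2 (chr15:100387898-100425072, - strand), which moves ferrous iron from the endosome to the cytosol, was 5525, 4905, 5567 and 4968 in the controls and 4805, 4544, 5173 and 5778 in the mice without Elmo1. Its range was 1.27-fold, with both the lowest and the highest library in Elmo1-/-, and the log2 fold change was -0.05 (SE 0.09, 95% interval -0.25 to 0.15). Reads in the exons that Slc11a2 shares with the opposite-strand gene Gm5475, itself at a mean of 3.31, may be assigned to either.

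Slc11a1 (chr1:74375195-74386062, + strand), the phagolysosomal metal transporter of macrophages, was 16097, 15224, 13307 and 10743 normalized counts in control mice 1 to 4. In knockout mice 1 to 4 it was 17348, 14389, 12172 and 13739. The lowest was Elmo1+/- mouse 4 and the highest Elmo1-/- mouse 1, and the log2 fold change was 0.06 (SE 0.15, 95% interval -0.28 to 0.40).

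For storage, Fth1 (chr19:9980598-9985098, + strand), the heavy chain with the ferroxidase site, was 940831, 865071, 652111 and 646186 normalized counts in control mice 1 to 4 and 1111297, 761416, 627378 and 622135 in knockout mice 1 to 4. Mouse 1 of each genotype was the highest and the libraries numbered 3 and 4 the lowest. The genotype means, 776050 ± 149781 and 780556 ± 229722, lay within 1.01-fold of each other, with a log2 fold change of -0.01 (SE 0.22, 95% interval -0.51 to 0.48). Ftl1 (chr7:45457944-45459884, - strand), the light chain, was 207088, 188431, 165569 and 168308 in the controls and 239838, 166567, 161674 and 156860 without Elmo1. Elmo1-/- mouse 1 was again the highest, while the other 7 values lay within 156860 to 207088, and the log2 fold change was -0.03 (SE 0.15, 95% interval -0.37 to 0.32). Ftl1-ps1, a near-identical copy on chromosome 13, held 40208 to 66130 normalized counts, so the share of reads that belongs to Ftl1 is uncertain. The copies took 20.5% to 21.7% of the sum in each library, and with them added the log2 fold change was -0.03 (SE 0.16).

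The number of Fth1 counts per Ftl1 count, compared only between libraries, was 4.54, 4.59, 3.94 and 3.84 in control mice 1 to 4 and 4.63, 4.57, 3.88 and 3.97 in knockout mice 1 to 4. It was 4.54 to 4.63 in the 4 libraries numbered 1 and 2 and 3.84 to 3.97 in the other 4, with both genotypes in each range. The 2 chains thus did not vary in strict proportion.

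Ncoa4 (chr14:32159865-32179855, + strand), which delivers ferritin for breakdown, was 687, 723, 1214 and 1210 normalized counts in control mice 1 to 4 and 482, 1010, 1203 and 1318 in knockout mice 1 to 4. It had the second widest range after Tfrc, 2.73-fold, with Elmo1-/- mouse 1 the lowest. Unlike Tfrc, it was higher in Elmo1-/- mouse 2 than in either control numbered 1 or 2. The log2 fold change was 0.02 (SE 0.33, 95% interval -0.73 to 0.78).

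Hmox1 (chr8:75093621-75100589, + strand), which opens the haem ring and frees its iron, was 102798, 87353, 90298 and 72404 normalized counts in control mice 1 to 4 and 89680, 79671, 74462 and 75687 in knockout mice 1 to 4. The control mice held both the highest and the lowest value, and the log2 fold change was -0.14 (SE 0.12, 95% interval -0.41 to 0.14). Slc40a1 (chr1:45908068-45926523, - strand), the only known iron exporter of mammalian cells, was 2917, 2999, 3189 and 2405 in the controls and 2683, 2689, 2463 and 2769 without Elmo1. Of the controls, 3 lay above all 4 Elmo1-/- libraries and mouse 4 below them, and the log2 fold change was -0.11 (SE 0.09, 95% interval -0.32 to 0.10). Ireb2 (chr9:54863789-54912530, + strand), the iron regulatory protein whose level is set by its breakdown when iron is plentiful, was 2175, 2423, 2627 and 2670 in the controls and 2001, 2626, 2654 and 2695 without Elmo1. Elmo1-/- mouse 1 was the lowest and the other 7 lay within 2175 to 2695, with a log2 fold change of 0.01 (SE 0.11, 95% interval -0.25 to 0.26).

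**Figure D3:**
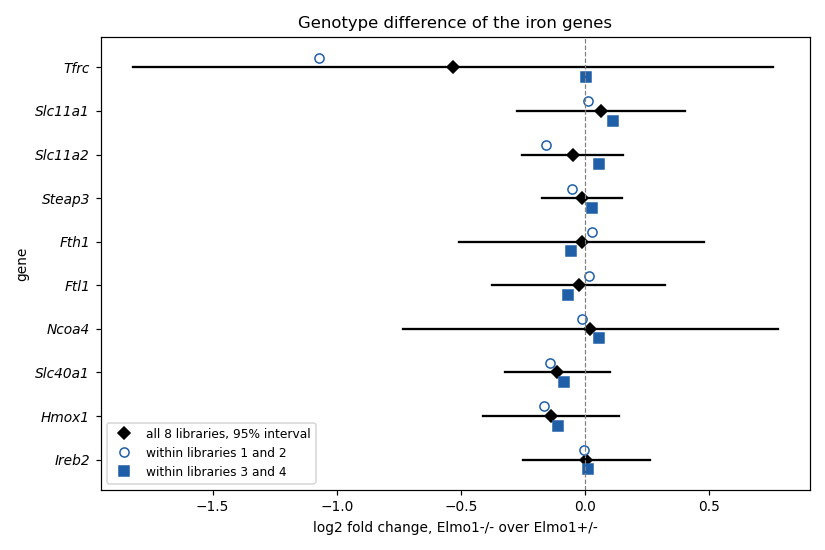
Log2 fold change of each iron gene, Elmo1-/- over Elmo1+/-. Diamonds and lines are the value over all 8 libraries with its 95% interval, open circles the difference within libraries numbered 1 and 2, and squares that within 3 and 4. Every interval includes 0, and for Tfrc the circle lies at -1.07 and the square at 0.01.

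By genotype, 0 of the 10 iron genes passed limma at an adjusted p under 0.05, where 0.00707% of all genes tested did (Elmo1 alone). At an unadjusted p under 0.05 there were 0 of the 10, against 133 of the 14139 genes tested. With the library set as a further term, 1 of the 10 was under 0.05 unadjusted, against 411 of the 14139 genes tested. This was Tfrc, with the same log2 fold change of -0.53 and an SE of 0.22 (limma adjusted p = 0.9999). Neither edgeR (0.00707% of all genes called) nor DESeq2 (0.0141%) on the recovered reads called any of them. The 4 values of each genotype overlapped for all 10, where they did not overlap for 0.941% of all genes. The 95% intervals were narrowest for Steap3, Slc11a2 and Slc40a1, whose bounds lay between -0.32 and 0.15 on the log2 scale, and widest for Tfrc and Ncoa4. A p that misses the threshold does not show that the genotypes were alike. Without Elmo1+/- mouse 4, the values of 1 of the 10, Slc40a1, no longer overlapped. That mouse was the control below all Elmo1-/- libraries for this gene, so leaving it out made the separation. The share of all genes without overlap was not computed for that setting, so the count is no result about the iron genes. Slc40a1 was also under 0.05 unadjusted there, as 202 of the 14139 genes tested were (log2 fold change -0.20, limma adjusted p = 0.9999).

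Within the libraries numbered 1 and 2, with 2 mice per genotype, Tfrc was lower in both Elmo1-/- mice, by a log2 fold change of -1.07 (SE 0.23, limma adjusted p = 0.99999), or 2.10-fold. It was the 1 iron gene at an unadjusted p under 0.05 there, among 361 of the 14139 genes tested. Within those numbered 3 and 4 the log2 fold change was 0.01 (SE 0.08). The difference between these 2 effects, 1.08 (95% interval 0.47 to 1.69), was tested after the data were seen. It did not pass over all genes (limma adjusted p = 0.9999), as no gene did (0% called). At an unadjusted p under 0.05 there were 378 of the 14139 genes tested. The median log2 fold change of the 14 osteoclast markers was -0.35 within libraries 1 and 2 and 0.15 within 3 and 4. That of the 12 macrophage markers was 0.07 and 0.04. The markers of a list vary together in the same libraries, so they are not separate observations. No median of all genes within each set is given beside them. The part of these markers in the Tfrc values was not tested. Like Tfrc, Slc11a2 and Slc40a1 were lower in both Elmo1-/- mice within libraries 1 and 2. This made 3 of the 10 without overlap, near the 26.9% of all genes that did not overlap there. In libraries 3 and 4 these were Fth1 and Ftl1, both slightly lower in Elmo1-/- (log2 fold changes -0.06 and -0.07), 2 of the 10 against 29.9% of all genes. Neither subset called an iron gene by limma, with 0.00707% and 0.0141% of all genes called.

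**Figure D4:**
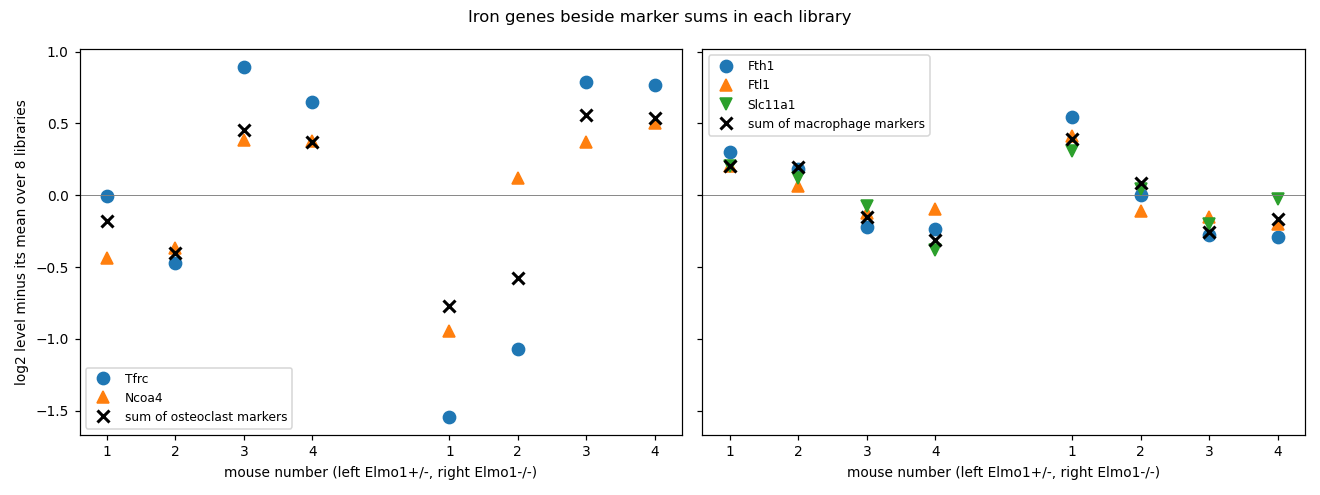
Log2 level of each gene minus its mean over the 8 libraries, by mouse. The left panel shows Tfrc and Ncoa4 with the sum of 14 osteoclast markers, the right panel Fth1, Ftl1 and Slc11a1 with the sum of 12 macrophage markers. Tfrc and Ncoa4 are above their mean in the libraries numbered 3 and 4, where the osteoclast sum is highest, and Fth1 and the macrophage sum are below theirs.

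The widest differences among the iron genes lay between the 2 sets of libraries rather than between genotypes. This split was known from earlier results of these data, so it is described and not tested. Tfrc was 53718 ± 3753 in the 4 libraries numbered 3 and 4 and 19881 ± 9054 in those numbered 1 and 2 (SD, n = 4 libraries), with a log2 difference of 1.55 that was matched or exceeded in 1.41% of all genes. Ncoa4 was 1236 ± 54.7 against 726 ± 217 (log2 difference 0.82). Ireb2 was 2661 ± 28.6 against 2306 ± 275 (0.21), with the highest library of the lower set at 2626 and the lowest of the upper set at 2627. Going the other way, Fth1 was 636952 ± 14448 in libraries 3 and 4 and 919654 ± 147415 in 1 and 2 (-0.52), and Slc11a1 was 12490 ± 1339 against 15764 ± 1265 (-0.34). In this way 3 of the 10 were higher without overlap in libraries 3 and 4, where 18.1% of all genes were, and 2 were lower, where 15.8% were. The other 5 overlapped, with log2 differences of -0.29 for Ftl1, -0.20 for Hmox1, 0.12 for Slc11a2, 0.10 for Steap3 and -0.07 for Slc40a1. The osteoclast, macrophage and proliferation markers moved with the same split, and their part in these values was not tested.

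Of the genes with a hairpin match printed above, Tfrc was higher in libraries 3 and 4 and Fth1 lower, while Ftl1 and Slc40a1 overlapped. Whether the hairpins had a part in these values was not tested. The osteoclast, macrophage and proliferation markers moved with the same split. Tfrc counts as a percentage of Fth1 counts were 3.33%, 2.61%, 8.94% and 7.60% in control mice 1 to 4 and 0.966%, 1.96%, 8.63% and 8.57% in knockout mice 1 to 4. This ratio of uptake to storage transcript was at most 3.33% in each library numbered 1 or 2 and at least 7.60% in each numbered 3 or 4. The RNA levels do not show how much of the ferritin or ferroportin mRNA was translated.

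The genes whose profile over the 8 libraries was most like that of Tfrc, by the root mean square difference of mean-centred log2 values, were Ckb (0.13), which encodes brain-type creatine kinase, and the predicted genes Gm20056 (0.14) and Gm12892 (0.14). Ckb was 47757, 34482, 92502 and 86884 normalized counts in control mice 1 to 4 and 20482, 28030, 96670 and 84052 in knockout mice 1 to 4, the same separation of the sets and the same low values in Elmo1-/- mice 1 and 2. Nearest to Ncoa4 were Taf4b (0.07), Enc1 (0.07) and Ivns1abp (0.07). Among those nearest to Fth1 were the leukocyte surface antigen Cd52 (0.03) and the galectin Lgals1 (0.04). These likenesses are over 8 libraries that fall into 2 sets, and the measure takes in both the size and the direction of the difference between the sets.

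**Figure D5:**
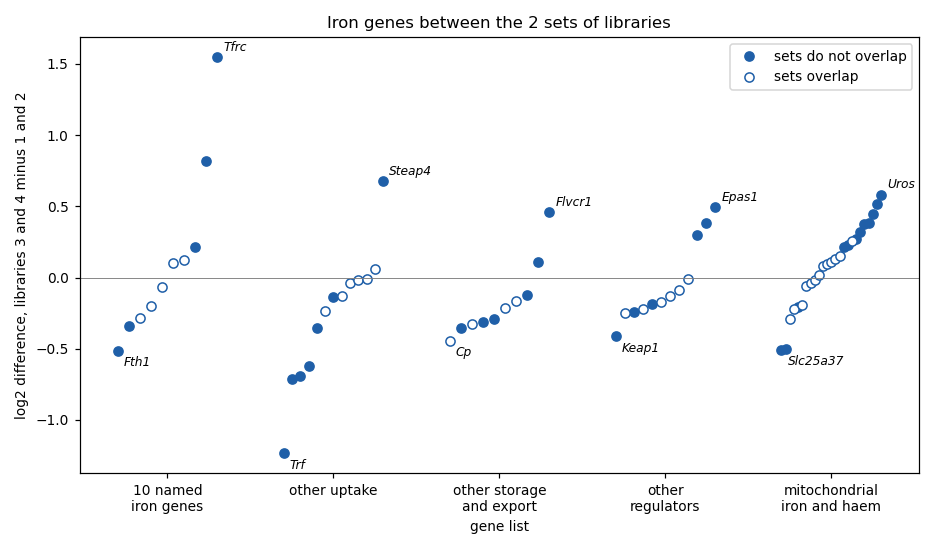
Log2 difference between libraries numbered 3 and 4 and those numbered 1 and 2 for the 10 named iron genes and 60 further iron genes in 4 lists. Filled points are genes whose 2 sets of values do not overlap. Tfrc, at 1.55, is the highest point and Trf, at -1.23, the lowest.

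A further 73 iron genes were listed by function, and 60 were abundant enough to test. By genotype, 0 of the 60 passed limma in either direction (0.00707% of all genes). At an unadjusted p under 0.05 there were 0 of the 60 (133 of the 14139 genes tested). Genotypes did not overlap for 0 of the 60 (0.941% of all genes). With shares this low over all genes, these counts set the 60 apart from no others. Their log2 fold changes ran from -0.17 (Lrp1, a haem-haemopexin receptor) to 0.18 (Cpox, an enzyme of haem synthesis). The others with the largest changes in their lists were Steap4 (0.17), Cp (0.07), Blvra (-0.06), Spic (0.15), Epas1 (0.11) and Fdx1 (-0.13), all within the spread between mice.

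Between the sets of libraries, 31 of the 60 did not overlap, 15 higher in 3 and 4 and 16 lower, where 18.1% of all genes were higher and 15.8% lower. The counts of each list below are to be read against these same shares. Of the 13 further uptake genes tested, 6 were lower in libraries 3 and 4 and 1, the reductase Steap4, higher (2550 against 1582 normalized counts), with 15.8% and 18.1% of all genes. Those lower were Slc48a1, the haem transporter of the phagolysosome (21255 against 27374), Lrp1 (11389 against 19128), the endosomal sorting gene Snx3 (6516 against 7181), Trf, Hfe and Cd163. Lcn2, the siderophore-binding lipocalin, overlapped (3633 against 4343). Trf, which encodes transferrin itself and is named here because its values stood out, was 57.1 to 82.2 in libraries 3 and 4 and 105 to 295 in 1 and 2, opposite in direction to its receptor.

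Of 10 storage and export genes tested, Blvrb and Blvra, the reductases that act after HMOX1 on biliverdin, were lower in libraries 3 and 4 (10763 against 13808 and 4009 against 4911). The iron chaperone Pcbp1 was higher (6442 against 5987) and Pcbp2 lower, as was Mon1a, while Flvcr1, described as a haem exporter, was higher. The ferroxidase Cp overlapped (775 against 1079). Hamp, which encodes hepcidin, was at 0 in all libraries but 1, and Hamp2 and Ftmt were at 0 in all 8.

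Of 12 regulators, Aco1, which encodes the other iron regulatory protein, Cisd1 (1378 against 1120) and Epas1 (82.0 against 58.3) were higher in libraries 3 and 4. Nfe2l2, the oxidative stress regulator that acts on Hmox1 and the ferritin genes (6703 against 7919), its inhibitor Keap1, and Fbxl5, which marks IRP2 for breakdown, were lower. Hif1a (5441 against 5945) and Spic (339 against 408), the regulator of iron-recycling macrophages, overlapped.

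Of the 25 mitochondrial iron and haem genes tested, 9 were higher in libraries 3 and 4 and 3 lower, beside 18.1% and 15.8% of all genes. Higher were the chaperone Hspa9 (20944 against 18103), Slc25a39 (8968 against 7670), the ferredoxin Fdx1 (421 against 309), the cluster assembly genes Nfs1, Glrx5 and Isca1, the transporter Abcb10, and Uros and Fech of haem synthesis. Lower were both mitochondrial iron importers, Slc25a37 and Slc25a28, and the haem synthesis gene Alad. Alas1, which starts haem synthesis in non-erythroid cells, overlapped between the sets (13450 against 11376), as did Cpox (267 against 255), and Alas2 did not exceed 4.76 in any library. The median log2 difference was -0.14 for uptake, -0.25 for storage and export, -0.15 for regulators and 0.11 for mitochondrial iron and haem, against -0.01 for all genes. Lists chosen with these data known cannot serve as evidence of a direction.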

How the data were processed

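The mRNA of osteoclast cultures from 4 Elmo1-/- and 4 Elmo1+/- mice was sequenced as 75 bp paired-end reads from Illumina TruSeq libraries, and genotypes were taken from the genotype labels. The submitters' processing notes name FastQC, STAR, featureCounts and DESeq2, with neither versions nor a genome build, which were not given in the sources used here. What the authors deposited is a normalized signal, the reads of a gene over a DESeq2 size factor. The deposited table also holds the authors' own comparison of the genotypes (a mean, log2 fold change, standard error, statistic, p-value and adjusted p-value), which was not used. The smallest step of a library turned 100% of its values into whole reads (tolerance 0.01 of a read), with totals of 20905502 to 40846651, so counting error is small for these genes. No 2 libraries of a genotype were copies, with a chi-square per gene of 8.72 to 190.

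Of 46517 gene identifiers, 46005 were named by GENCODE M21 (GRCm38) and 512 were not, but these were kept. The test was limma 3.58.1 in R 4.3.3 on log2(normalized count + 1), with trend and robust settings and genotype as the only term, for the 14139 genes that reached a normalized count of 10 in 4 or more libraries, and p-values were adjusted after Benjamini and Hochberg (threshold 0.05). Fold changes on this scale slightly understate those of low genes. Levels per kb were divided by the union of annotated exons. The scripts were tested on simulated data. Each library is a separate mouse, but which mice shared an experiment is not given, so p-values measure the spread between these libraries.

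The titles number the libraries 1 to 4 in each genotype. Deviations from the genotype means correlated across genes by 0.156 to 0.703 in the 4 same-numbered pairs, over 0.1 in each, so by that rule the numbers pair the libraries. Differently numbered pairs correlated by 0.0259 to 0.691 within a set and by -0.700 to -0.0781 across sets, so the numbers carry little beyond the set. This pairing comes from the values and the numbers, not from shared animals. Because the first principal component parts libraries 1 and 2 from 3 and 4, no correlation over all 8 libraries is given.

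The genes and lists were chosen with earlier results of these data known. Named were the 10 iron genes, Elmo1, in each further iron list the 3 highest per kb, the 2 with the largest fold change and any gene called, in each marker list the 3 highest, and for the 3 iron genes with the widest range the 3 nearest profiles, of which 1 is not reported here. Trf and the other list genes without values in the text were named after their values were seen. Of the 73 further iron genes, 2 were matched through an older symbol (Hjv as Hfe2 and Fdx2 as Fdx1l). Alternatives were edgeR 4.0.16 (quasi-likelihood) and DESeq2 1.42.0 on the recovered reads, equal totals or TMM as the scaling, no filter, a minimum of 50, pseudocounts of 0.5 and 8, a replicate block, the library set as a term, each set alone and leaving out each mouse. The difference of the genotype effect between the sets and the sum of Ftl1 with its copies were added after the data were seen. Python 3.11.15, pandas 2.3.3, numpy 2.4.6 and matplotlib 3.10.9 were used for the descriptions and plots.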

Additional observations from a re-analysis of the deposited data

Results flagged for a closer look

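In 4 instances the Elmo1-/- library of mouse 1 stood apart from the other 3 of its genotype, by a gap to the nearest value that took most of the range of the group. The share of the range was 0.883 for Ftl1 (239838 against 156860 to 166567 normalized counts), 0.900 for Ireb2 (2001 against 2626 to 2695), 0.877 for the haemopexin receptor Lrp1 (20431 against 11430 to 12540) and 0.832 for the neutrophil marker S100a9 (4039 against 874 to 1407). Among the 96 groups of 4 examined over 48 genes, chance alone would place about 1 in 20, or 4.8, past the limit used. That number takes each group as a single normal sample, although the libraries fall into sets, and all these genes share the same libraries. It therefore cannot tell whether this library stood apart by chance. Of the summed markers, macrophage markers were highest and osteoclast markers lowest in that same library (2221032 and 487996), and their part in these values was not tested.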

How the results depend on the processing

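No iron gene was called under any of the alternatives run, and Elmo1 was called under each. The number of genes called over the whole table was 1 in most, 2 by DESeq2 and within libraries 3 and 4, and 1 to 2 when single mice were left out. With the replicate block, which pairs libraries by number, 1 gene was called (389 at an unadjusted p under 0.05 against 133 without it) and the log2 fold change of Tfrc kept its value of -0.53 with an SE of 0.30 in place of 0.57; the block changed no call. Iron genes without overlap between genotypes numbered 0 to 1 when single mice were left out (Slc40a1, without Elmo1+/- mouse 4). The share of all genes was not computed for those settings, so these counts are no result about the iron genes. Within libraries 1 and 2 they numbered 3, where 26.9% of all genes did not overlap. Within 3 and 4 they numbered 2, where 29.9% of all genes did not. Of 121 values under other settings, 9 changed sign, all of differences under 0.06 in size there. These were Fth1 by edgeR (0.0079) and DESeq2 (0.0074), Ncoa4 (-0.0130), Ireb2 (-0.0024), Ftl1 (0.0169) and Fth1 (0.0281) within libraries 1 and 2, and Steap3 (0.0273), Slc11a2 (0.0559) and Tfrc (0.0055) within 3 and 4. Leaving out single mice changed the sign of 24 of 80 values, with log2 fold changes of -0.20 to 0.0857 for Fth1, -0.17 to 0.0377 for Ftl1, -0.0544 to 0.11 for Ireb2, -0.14 to 0.34 for Ncoa4, -0.0530 to 0.14 for Slc11a1, -0.11 to 0.0011 for Slc11a2, -0.0596 to 0.0160 for Steap3, -0.20 to -0.06 for Slc40a1, -0.23 to -0.06 for Hmox1 and -0.88 to -0.11 for Tfrc. The cause of these changes was not tested. The smallest limma adjusted p of an iron gene over all alternatives was 0.9370. Rescaling moved the median of all genes by under 0.1 on the log2 scale. The iron genes held at least 510 reads in every library, so counting error was small beside the spread between mice.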
